A study of Mus musculus with 9 samples.

Results

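The genes described here encode core parts of the tight junctions of the epidermis, and they were taken as the rows of the expression table that carry the symbols Cldn1, Cldn3, Cldn4, Cldn7, Cldn12, Ocln, Tjp1, F11r and Cgn. These were 9 of the 38203 genes in the table, and all 9 passed the filter that left 16897 genes for testing (an average above 0.1 FPKM in at least 1 genotype). The rule names symbols, and for a symbol on more than 1 row it takes the row with the highest mean over the 9 libraries. It uses no difference between genotypes, although the symbols were chosen with earlier results of these data known. RNA was sequenced from the epidermis of E18.5 mouse embryos, each library from 1 embryo, on a mixed C57BL6/129Sv background backcrossed into C57BL6. The genotypes were WT (n = 2), KO (Esrp1-/-, Esrp2+/+; n = 3), KH (Esrp1-/-, Esrp2+/-; n = 2) and DKO (Esrp1-/-, Esrp2-/-; n = 2). Esrp1 and Esrp2 are RNA-binding proteins that regulate splicing in epithelial cells. Both alleles were germline alleles, so every tissue of the embryo carried them: exons 7 to 9 of Esrp1 were removed with a Zp3-Cre transgene, which is active in oocytes, and the Esrp2 allele came from a knockout ES cell line. The sample labels name the controls as wild type for both genes, while the text on RNA extraction gives them as Esrp2-/-. Esrp2 RNA was high in them (118 and 136 FPKM, against 0.0843 and 0.0463 FPKM in DKO), so they were taken as wild type.

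Tight junctions seal the space between neighbouring epithelial cells near their apical side. Claudins are the membrane proteins that form the strands of the junction and set which ions and small solutes pass, occludin and the junctional adhesion molecules accompany them in the membrane, and plaque proteins such as ZO-1 and cingulin tie them to the actin cytoskeleton. In the epidermis the functional tight junction lies in the granular layer, below the cornified layer, and mice without Cldn1 die soon after birth from loss of water through the skin.

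The expression values are FPKM, fragments scaled to transcript length and to the mapped fragments of the library, so levels of different genes can be compared per length. The table holds no read counts, and the sequencing depth that the study describes was not used here, so no counting interval was given. Esrp2 stood at 118 and 136 FPKM in the WT libraries and at 0.0843 and 0.0463 FPKM in DKO, and Esrp1 was at 119 and 142 FPKM in WT and between 18.2 and 55.1 FPKM in the 7 libraries without it. RNA from the undeleted exons of Esrp1 can still be counted. Keratinocyte markers were abundant, with 4123 to 8512 FPKM summed over 6 basal markers, while all 5 endothelial and all 5 skeletal muscle markers stayed below 1 FPKM in every library. In 3 libraries, KO replicate 1, KH replicate 1 and DKO replicate 2, the summed FPKM of 6 granular layer markers (Lor, Flg2, Tgm3, Casp14, Hrnr and Cdsn) was 3730, 2790 and 3482, against 6455 to 8508 in the other 6. Lor made up 68.1% to 82.4% of these sums, and the sums of the other 5 markers were also lowest in the 3 libraries (769 to 838 FPKM, against 1460 to 2131 FPKM), although single markers such as Tgm3 (62.0 FPKM in DKO replicate 2, the highest of the 7 libraries without Esrp1) were not. The same 3 had the lowest FPKM sums over all genes (713318 to 771857, against 867380 to 1130713). All 3 are from embryos without Esrp1, and none is WT, so differences that changed sign or call without them are given both ways.

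The bases before the transcription starts of 4 of the genes are shown first, because the levels of Cldn1, Ocln and Cgn varied most alike across libraries and Cldn4 was lowest in the 3 libraries low in granular markers. The RefSeq sequences of the 250 bases before the start are on build GRCm38.p6, on the minus strand in each case, and all 9 genes had an entry. Cldn1 lies at chr16:26371840-26372089, Cldn4 at chr5:134946935-134947184, Ocln at chr13:100552719-100552968 (the more upstream of its listed starts) and Cgn at chr3:94786483-94786732. Capitals mark letters found on either strand for a Grainyhead-like motif (AACNGGTT), an AP-1 motif (TGANTCA), an E-box (CAGGTG), a Klf motif (CACCC) or a GC box (GGGCGG).
Cldn1: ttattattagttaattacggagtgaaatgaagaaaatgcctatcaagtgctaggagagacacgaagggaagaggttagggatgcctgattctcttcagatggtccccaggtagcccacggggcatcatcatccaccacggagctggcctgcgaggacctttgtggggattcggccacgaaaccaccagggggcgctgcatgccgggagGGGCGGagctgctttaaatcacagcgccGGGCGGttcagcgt
Cldn4: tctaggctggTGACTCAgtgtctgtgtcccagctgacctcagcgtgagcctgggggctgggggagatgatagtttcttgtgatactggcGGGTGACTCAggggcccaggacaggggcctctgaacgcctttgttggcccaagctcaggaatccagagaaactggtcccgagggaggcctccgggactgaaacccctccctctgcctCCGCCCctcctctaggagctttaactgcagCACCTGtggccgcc
Ocln: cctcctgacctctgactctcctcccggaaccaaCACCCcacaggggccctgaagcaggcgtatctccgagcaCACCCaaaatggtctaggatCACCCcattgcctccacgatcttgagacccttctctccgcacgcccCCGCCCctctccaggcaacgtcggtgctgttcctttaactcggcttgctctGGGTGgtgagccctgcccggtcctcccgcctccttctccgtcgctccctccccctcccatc
Cgn: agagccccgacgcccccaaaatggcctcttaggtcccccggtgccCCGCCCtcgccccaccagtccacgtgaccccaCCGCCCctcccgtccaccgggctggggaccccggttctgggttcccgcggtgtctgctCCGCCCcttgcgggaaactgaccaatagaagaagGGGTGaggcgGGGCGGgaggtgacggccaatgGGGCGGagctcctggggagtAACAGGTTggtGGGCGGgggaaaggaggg
The GC box was found before a start of all 9 genes, and before a start of 35.4% of the 27025 genes with a RefSeq window. Cldn1 held no other of the 5 motifs. The AP-1 motif was in the windows of Cldn4 and F11r (7.82% of genes), with 2 matches in Cldn4 at 240 and 158 bases before the start, and the second of these shares letters with a Klf match. Cgn alone held the Grainyhead-like motif, at 29 bases before its start (2.00% of genes). The E-box was in 4 of the 9 (Cldn4, Cldn7, F11r and Ocln, against 19.4% of genes) and the Klf motif in 7 of the 9 (54.5% of genes). For Ocln the E-box is in the window of its other start and not in the one shown. These are matches of letters and were not tested as binding sites.

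Levels differed widely between the 9 genes, with Cldn1 highest and Cldn3 lowest in the mean of every genotype. Cldn1 had the highest mean over the 9 libraries (94.3 FPKM), followed by Cldn4 (78.5 FPKM) and F11r (62.0 FPKM). Their ranges over libraries overlapped, at 60.0 to 129.6 FPKM for Cldn1, 41.4 to 107 FPKM for Cldn4 and 41.5 to 82.7 FPKM for F11r. Cgn (11.3 to 30.8 FPKM), Tjp1 (11.2 to 28.2 FPKM) and Ocln (8.05 to 20.2 FPKM) formed a middle group whose ranges also overlapped. Cldn12 lay lower, between 5.08 and 8.10 FPKM. Cldn7 (0.301 to 1.99 FPKM) and Cldn3 (0.0340 to 0.286 FPKM) were lowest, and the highest library of Cldn3 was below the lowest of Cldn7.

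**Figure D1:**
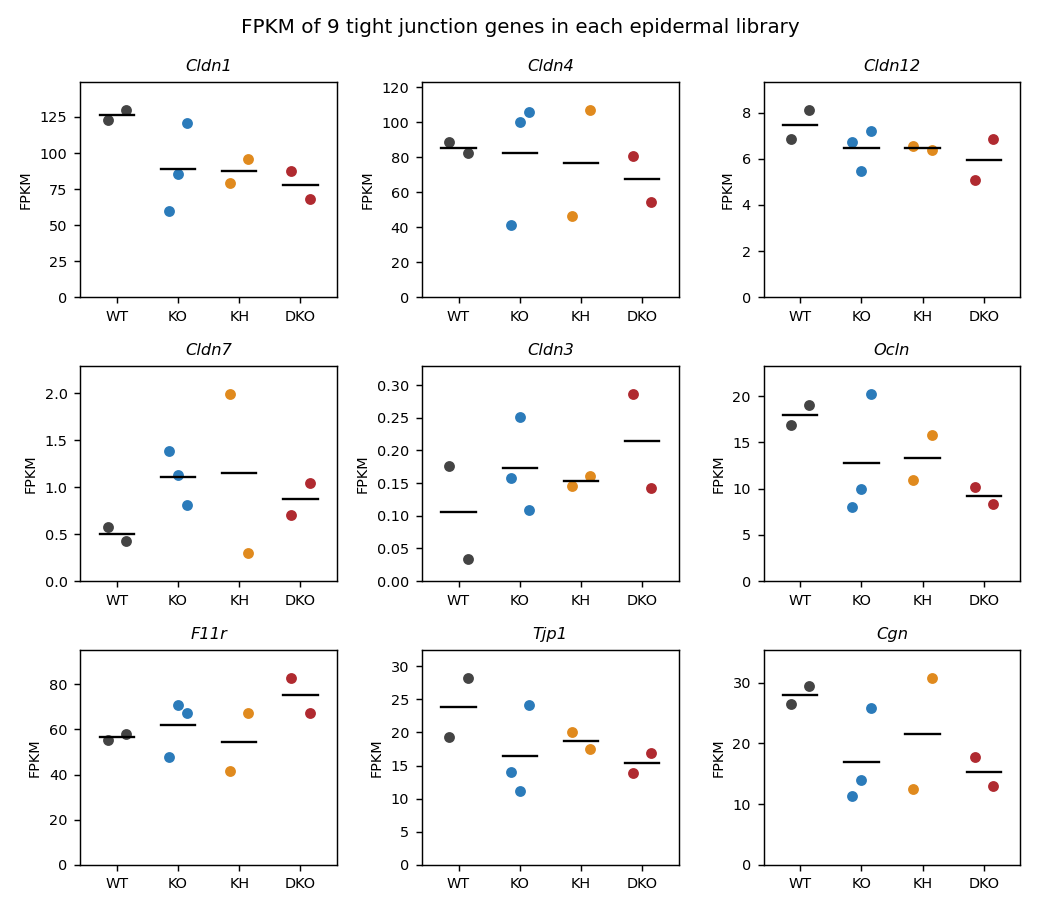
FPKM (vertical axes, each from 0) of the 9 tight junction genes in WT, KO, KH and DKO epidermis; points are libraries and lines are genotype means. For Cldn1 the 7 libraries without Esrp1 (60.0 to 121 FPKM) lay below both WT libraries (123 and 129.6 FPKM), and for the other genes some of them overlapped WT.

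None of the 9 genes passed the threshold in any of the 6 comparisons made with limma (an adjusted p below 0.05 and over a 2-fold difference in average FPKM). These compared DKO, KO and KH with WT, DKO with KO, DKO with KH, and the mean of the 3 genotypes without Esrp1 (Esrp1-null) with WT. The share of all tested genes that passed was 0.728% in DKO against WT, 0.0296% in KO against WT, 0.0296% in KH against WT, 0.639% in DKO against KO, 0.426% in DKO against KH and 0.101% in Esrp1-null against WT, and beside these shares a count of 0 of 9 is near the background. These shares depended on the fit: the 123 genes that passed in DKO against WT became 54 without WT replicate 2 and 556 with arrayWeights, and the 5 in KH became 33 without KH replicate 1. At an unadjusted limma p below 0.05 the count was 1 of 9 in DKO against WT (Ocln; 13.8% of all genes), 0 in KO against WT (4.53% of all genes), 0 in KH against WT (3.72% of all genes) and 1 of 9 in Esrp1-null against WT (Cldn1; 9.49% of all genes). The count was 0 of 9 in DKO against KO (6.8% of all genes) and in DKO against KH (5.71% of all genes).

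The 4 comparisons with WT share the same 2 WT libraries. The median log2 difference of the 9 genes was -0.36 in DKO against WT, -0.18 in KO and -0.28 in KH, beside 0.02, 0.00 and 0.00 over all tested genes. Negative differences were found for 6 of 9 genes in DKO, 6 in KO and 7 in KH. Without the 3 libraries low in granular markers these counts were 6, 5 and 5, and the medians -0.48, -0.21 and -0.17. In DKO both libraries lay below both WT libraries for 6 of the 9 genes (Cldn1, Cldn4, Cldn12, Ocln, Tjp1 and Cgn), beside 26.4% of all tested genes, and above both for 2 (Cldn7 and F11r), beside 27.8%. In KO all 3 libraries were below both WT libraries for Cldn1 and Cgn (12.1% of all genes) and above both for Cldn7 (12.6%). In KH the libraries lay below both for Cldn1, Cldn12 and Ocln (16.6% of all genes) and above both for 0 of the 9 (15.3%). Only Cldn1 had all 7 libraries without Esrp1 below both WT libraries, which held for 5.08% of all tested genes, and 0 of the 9 had all 7 above both (5.07%).

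**Figure D2:**
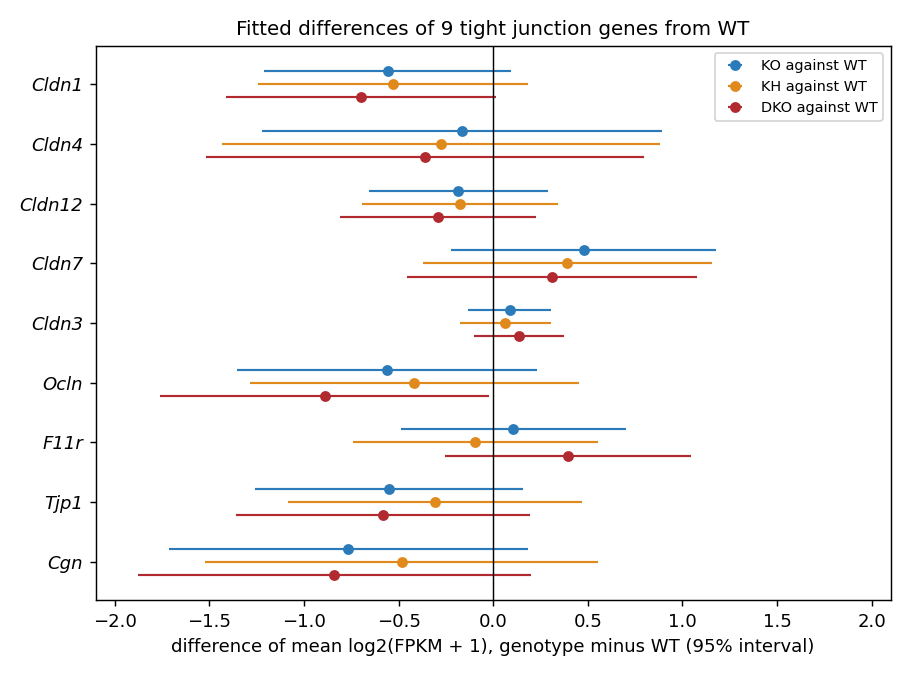
Differences of mean log2(FPKM + 1) from WT (horizontal axis) for each of the 9 genes in KO, KH and DKO, with 95% intervals from limma. All intervals include 0 except that of Ocln in DKO (-1.76 to -0.021), and that difference had an adjusted p of 0.354.

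Cldn1 (chr16:26356642-26371841, minus strand, GRCm38) encodes claudin-1, the claudin whose loss breaks the water barrier of mouse skin. It measured 123 and 129.6 FPKM in WT, 60.0, 85.6 and 121 FPKM in KO, 79.0 and 95.7 FPKM in KH, and 87.5 and 68.2 FPKM in DKO. All 7 libraries without Esrp1 were thus below WT, and KO replicate 3 only just. Mean levels were 126 ± 4.88 FPKM (SD, n = 2) in WT and 77.8 ± 13.7 FPKM (SD, n = 2) in DKO, 61.7% of WT. The log2 difference in DKO was -0.70 (SE 0.31, limma adjusted p = 0.368). Over the 3 genotypes without Esrp1 it was -0.60 (SE 0.25, 95% interval -1.17 to -0.021, limma adjusted p = 0.523). Without the 3 libraries low in granular markers the latter was -0.41 (limma adjusted p = 0.503).

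Cldn4 (chr5:134945119-134946934, minus strand) encodes claudin-4, which is concentrated in the granular layer. Its levels were 88.5 and 82.2 FPKM in WT, 41.4, 100.2 and 106 FPKM in KO, 46.2 and 107 FPKM in KH, and 80.5 and 54.6 FPKM in DKO. The 41.4, 46.2 and 54.6 FPKM values came from the 3 libraries low in granular markers, and the other 4 libraries without Esrp1 ranged around the WT values. In DKO the log2 difference was -0.36 (SE 0.51, adjusted p = 0.773; -0.63 without DKO replicate 1 and -0.083 without DKO replicate 2), and its 95% interval of -1.52 to 0.80 included changes of over 2-fold. Leaving out the 3 libraries turned the sign in KO from -0.16 to 0.27, in KH from -0.28 to 0.32 and in Esrp1-null from -0.27 to 0.17, none past the threshold.

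Cldn12 (chr5:5489537-5514958, minus strand) encodes a claudin that lacks the usual PDZ-binding end of the family. It varied little, with 6.85 and 8.10 FPKM in WT, 6.75, 5.47 and 7.20 FPKM in KO, 6.55 and 6.40 FPKM in KH, and 5.08 and 6.84 FPKM in DKO. The higher DKO value lay just under the lower WT value. In DKO against WT the log2 difference was -0.29 (SE 0.23, adjusted p = 0.581), and it was -0.11 without DKO replicate 1 and -0.48 without DKO replicate 2.

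Cldn7 (chr11:69964779-69967885, plus strand) encodes claudin-7, an abundant claudin of simple epithelia. It was at 0.579 and 0.430 FPKM in WT, 1.39, 1.13 and 0.805 FPKM in KO, 1.99 and 0.301 FPKM in KH, and 0.700 and 1.05 FPKM in DKO. Both the highest and the lowest of the 9 libraries were KH. Averages were 219% of WT in KO, 227% in KH and 173% in DKO, and the log2(FPKM + 1) scale understates changes at such low levels. The log2 difference was 0.31 (SE 0.34) in DKO and 0.48 (SE 0.31) in KO, with limma adjusted p values of 0.696 and 0.853. The value in DKO was 0.18 without DKO replicate 2, as without the 3 libraries, and 0.45 without DKO replicate 1. In KH it turned from 0.39 to -0.21 without KH replicate 1.

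Cldn3 (chr5:134986214-134987472, plus strand) encodes claudin-3, another claudin of simple epithelia. It measured 0.176 and 0.0340 FPKM in WT, 0.158, 0.251 and 0.108 FPKM in KO, 0.145 and 0.160 FPKM in KH, and 0.286 and 0.143 FPKM in DKO. The groups overlapped, and no library reached 0.3 FPKM. An antisense gene, Wbscr25, overlaps Cldn3, and the table gives Cldn3 a locus that runs beyond the annotated gene. The library kit keeps strand, but whether strand was used in the estimate is not given in the sources used here, so the value is uncertain.

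**Figure D3:**
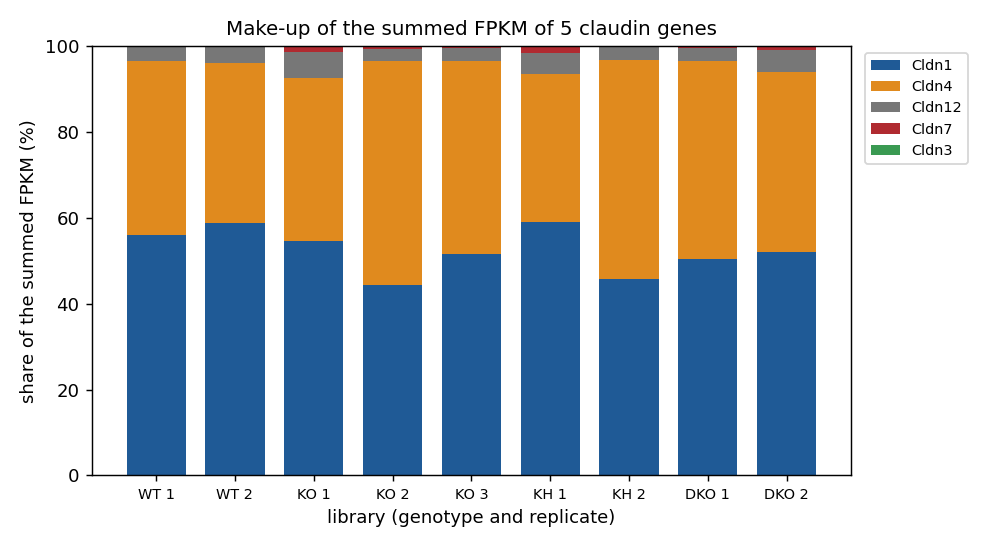
Share (%) of each of the 5 claudin genes in their summed FPKM, one bar per library of WT, KO, KH and DKO. Cldn1 and Cldn4 made up most of every bar, with Cldn1 at 56.1% and 58.8% in WT and between 44.4% and 59.0% in the other libraries.

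Shares within the claudins do not depend on the scaling between libraries. Summed over the 5 claudins, the levels were 219 and 220.3 FPKM in WT, 109.7, 193 and 235 FPKM in KO, 134 and 209 FPKM in KH, and 174 and 131 FPKM in DKO. Cldn1 made up 57.4% ± 1.95 (SD, n = 2) of this sum in WT and 51.1% ± 5.01 (SD, n = 7) in the libraries without Esrp1, and the difference of -6.34 percentage points had an exact two-sided permutation p of 0.139. Cldn4 made up 38.9% ± 2.24 (SD, n = 2) in WT and 44.0% ± 6.50 (SD, n = 7) without Esrp1 (exact permutation p = 0.306). For the shares of Cldn3, Cldn7 and Cldn12 the exact permutation p was 0.139, 0.194 and 0.694. The smallest p that 2 against 7 libraries allows is 0.0278, and these p values were not adjusted for the 5 shares tested. The 7 libraries pool KO, KH and DKO. The shares are parts of the same sum, so those of Cldn1 and Cldn4 are not separate results. Taken over all 25 claudin genes of the table, the share of Cldn1 differed by -6.18 percentage points and did not overlap between the groups (32.3% to 40.8% without Esrp1 against 42.0% and 44.2% in WT; exact permutation p = 0.0556), while for the other 4 the p ranged from 0.139 to 0.694. One of the 25, listed as Cldn25 and now named Cldnd1, made up 13.3% to 24.0% of that sum. Without it the difference for Cldn1 was -6.60 percentage points, the groups overlapped and the exact permutation p was 0.139, an alternative added after the data were seen.

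Ocln (chr13:100496507-100552718, minus strand) encodes occludin, a membrane protein with 4 transmembrane spans that lines the strands. Its levels were 16.9 and 19.0 FPKM in WT, 8.05, 10.0 and 20.2 FPKM in KO, 10.9 and 15.8 FPKM in KH, and 10.1 and 8.34 FPKM in DKO. Both KH and both DKO libraries were below WT, and KO spanned it, with KO replicate 3 above both WT libraries. Means were 17.9 ± 1.54 FPKM (SD, n = 2) in WT and 9.24 ± 1.27 FPKM (SD, n = 2) in DKO, 51.5% of WT. The log2 difference of -0.89 (SE 0.38, limma adjusted p = 0.354) was the lowest of the 9 genes in DKO, and it did not pass. It was -0.76 (adjusted p = 0.465) without the 3 libraries low in granular markers.

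F11r (chr1:171437535-171464603, plus strand) encodes JAM-A, an adhesion molecule of the immunoglobulin family. It measured 55.2 and 58.0 FPKM in WT, 47.6, 70.8 and 67.2 FPKM in KO, 41.5 and 67.4 FPKM in KH, and 82.7 and 67.3 FPKM in DKO. Both DKO libraries were above WT, while KO and KH had values on either side of it. The log2 difference in DKO was 0.39 (SE 0.28, adjusted p = 0.554). It was 0.25 without DKO replicate 1 and 0.54 without DKO replicate 2. In Esrp1-null the difference lay between 0.021 and 0.25 when 1 library was left out. Without the 3 libraries low in granular markers it was 0.54 in DKO and 0.36 in Esrp1-null.

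Tjp1 (chr7:65296165-65527781, minus strand) encodes ZO-1, the scaffold that binds claudins and occludin. Its values were 19.4 and 28.2 FPKM in WT, 14.1, 11.2 and 24.1 FPKM in KO, 20.0 and 17.5 FPKM in KH, and 13.8 and 16.9 FPKM in DKO. The 2 WT libraries differed by more than DKO and WT replicate 1. In DKO against WT the log2 difference was -0.58 (SE 0.34, adjusted p = 0.471), with a range of -0.84 to -0.32 when 1 library was left out.

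Cgn (chr3:94760069-94786492, minus strand) encodes cingulin, which links the plaque to actin and microtubules. It was at 26.5 and 29.5 FPKM in WT, 11.3, 14.0 and 25.8 FPKM in KO, 12.5 and 30.8 FPKM in KH, and 17.7 and 12.9 FPKM in DKO. KO and DKO lay below both WT libraries, and KH had 1 library below and 1 above. The log2 difference was -0.84 (SE 0.46) in DKO and -0.77 (SE 0.42) in KO, with limma adjusted p values of 0.443 and 0.853. In KH it was -0.48, and 0.13 without KH replicate 1.

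DKO and KO or KH differed little in these genes beside their spread. The log2 differences of the 9 genes lay between -0.33 (Ocln) and 0.29 (F11r) in DKO against KO and between -0.47 (Ocln) and 0.49 (F11r) in DKO against KH. For Ocln the 95% interval was -1.12 to 0.46 against KO and -1.34 to 0.40 against KH, so a 2-fold lower level in DKO lay inside both.

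Across the 9 libraries the levels of Ocln and Cldn1 were the most alike pair of the 9 genes (Pearson r = 0.94 of log2(FPKM + 1)), followed by Ocln and Cgn (r = 0.92) and Cgn and Cldn1 (r = 0.88). The lowest r among the pairs were those of Cldn12 and Cldn3 (-0.97), Cgn and Cldn7 (-0.88) and Tjp1 and Cldn3 (-0.87), and each of these pairs holds Cldn3 or Cldn7, which were measured low. These are descriptions over the same 9 libraries, which also share the 3 low libraries. Among the 12196 other genes averaging at least 1 FPKM, the 3 most like Cldn1 were Rdh1, Sdr16c6 and Nkiras2 (r = 0.98 each). Those most like Cldn4 were Pqlc2 (0.99), Lsr (0.98) and Gpr160 (0.98), and Lsr encodes angulin-1, a protein of tricellular tight junctions. Ocln was followed most closely by Blzf1, Psd4 and Tmem170 (0.98 each) and Cgn by Unc13b, Myzap and Bpifc (0.99 each). Odc1, Gins2 and Prr5 were nearest to Cldn7 (0.99, 0.98 and 0.98), Med13l, Phf3 and Rprd2 to Cldn12 (0.97 each), and Bola2, Gm12350 and AL589742.1 to Cldn3 (0.97, 0.96 and 0.96). Tjp1 was nearest to Ptpn1, Ap1g1 and E430025E21Rik (0.98 each), and F11r to 2300005B03Rik, Cc2d1a and Csk (0.98, 0.97 and 0.97).

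**Figure D4:**
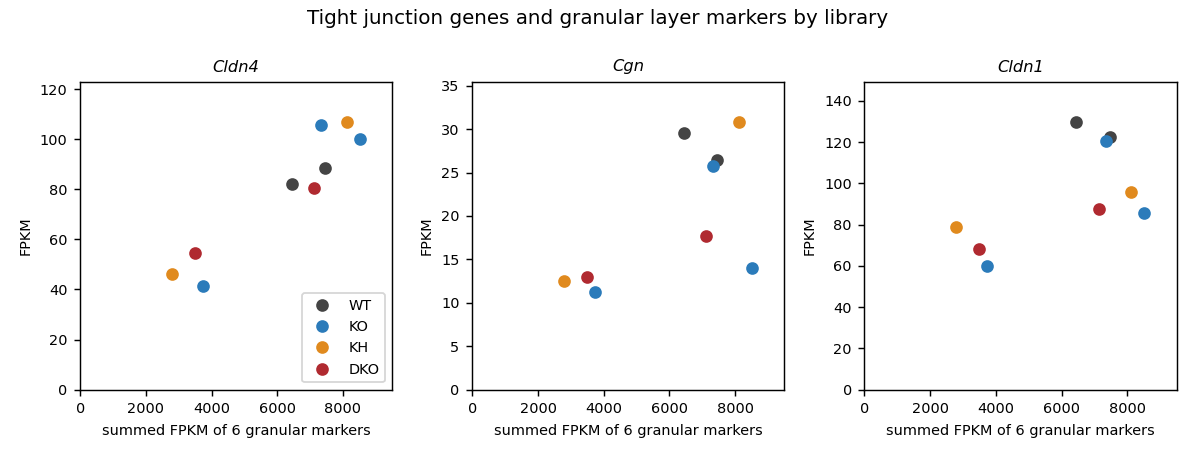
FPKM of Cldn4, Cgn and Cldn1 (vertical axes) against the summed FPKM of 6 granular layer markers (horizontal axes) in the 9 libraries, coloured by genotype. The 3 libraries with 2790 to 3730 FPKM of granular markers held the 3 lowest values of Cldn4 (41.4 to 54.6 FPKM) and of Cgn (11.3 to 12.9 FPKM).

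Markers of the layers of the skin moved with the levels of some of these genes. Summed over the 6 granular markers, WT had 6455 and 7463 FPKM, KO between 3730 and 8508, KH 2790 and 8128, and DKO 3482 and 7125. Lor made up most of the sum, and the single markers differed: Tgm3 and Cdsn were below both WT libraries in all 7 libraries without Esrp1, Flg2 and Hrnr in 6, Casp14 in 4 and Lor in the 3 with the lowest sums. Tgm3, which encodes a transglutaminase of the cornified envelope, averaged 41.9% of WT in KO, 37.7% in KH and 69.0% in DKO, and Cdsn, which encodes corneodesmosin, 60.2%, 55.8% and 68.5%. Cldn4 was lowest in the 3 libraries with the lowest sums, Cgn likewise, and Cldn1 was at 60.0 to 79.0 FPKM in them, against 85.6 FPKM or more elsewhere. Other values departed from this order. KO replicate 2, with the highest granular sum (8508 FPKM), had Cgn at 14.0 FPKM, Ocln at 10.0 FPKM and the lowest Tjp1 of all libraries (11.2 FPKM). KH replicate 1, with the lowest sum, had Tjp1 at 20.0 FPKM, above WT replicate 1 (19.4 FPKM). The summed hair follicle markers, mostly Krt17, ran opposite to the granular sums, with 651 to 709 FPKM in the 3 low libraries and 371 to 576 FPKM in the others. The sum of 6 basal markers was likewise highest in the 3 (7381 to 8512 FPKM, against 4123 to 6594 FPKM) and that of 4 spinous markers lowest (21332 to 27626 FPKM, against 36322 to 65904 FPKM). These sums are carried by the keratins Krt5 and Krt14 and by Krt1 and Krt10, and single markers departed from them: Krt15 was highest in WT (990.3 and 1109 FPKM) and lowest in DKO replicate 2 (288 FPKM), and Dsc1 was lowest in DKO replicate 1 (59.4 FPKM). The 4 periderm and simple epithelium markers summed to 19.1 and 15.9 FPKM in DKO and to 7.81 to 11.4 FPKM in the other libraries. Of them, Krt7 was at 13.0 and 9.53 FPKM in DKO and at 3.05 to 5.16 FPKM in the other libraries, while Krt19 was at 0.246 and 0.375 FPKM in DKO and 1.03 and 0.547 FPKM in WT. The 6 melanocyte markers summed to 43.7 and 47.8 FPKM in WT and to 57.3 to 208 FPKM in the libraries without Esrp1, although Tyrp1 was between 0.868 and 0.995 FPKM in KO and at 1.02 and 0.997 FPKM in WT. The 6 immune markers summed to 3.70 and 9.66 FPKM in WT, 6.15 to 18.9 FPKM in KO, 7.39 and 28.3 FPKM in KH, and 29.5 and 12.8 FPKM in DKO. The members of this list differed: Cd74 and H2-Aa, of antigen presentation, were highest in DKO replicate 1 (16.8 and 6.22 FPKM), whereas Ptprc, Cd3e and Lyz2 were highest in KH replicate 2 (5.01, 4.02 and 9.66 FPKM), and the average of Ptprc in DKO was 92.9% of WT. The Langerhans cell marker Cd207 was at 0 in 8 of the 9 libraries. The red blood cell markers, of which 4 of 5 were found, summed to 531 and 78.7 FPKM in WT and ranged from 13.3 FPKM in KH replicate 1 to 1289 FPKM in DKO replicate 2, both among the 3 low libraries. Of 6 dermal fibroblast markers Dcn made up most of the sum (44.2 to 149.6 FPKM), and the collagen genes stood apart in KO replicate 1, one of the 3 low libraries, with Col1a1 at 2.65 FPKM (0.112 to 0.290 FPKM elsewhere), Col1a2 at 4.69 FPKM (0.908 to 2.24 FPKM) and Col3a1 at 5.39 FPKM (0.300 to 0.966 FPKM). In bulk epidermis, fewer cells of a layer and less RNA per cell cannot be told apart, and the part of these markers in the levels above was not tested.

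A list of 63 further tight junction genes was found in the table, of which 48 were tested. Clmp was the 1 gene of the 48 that passed the threshold in DKO, KO, KH and Esrp1-null against WT. The median log2 difference of the 48 was 0.02 in DKO against WT, beside 0.02 over all genes. At an unadjusted limma p below 0.05 there were 5 of 48 in DKO (13.8% of all genes), 4 in KO (4.53%), 2 in KH (3.72%) and 4 in Esrp1-null (9.49%). In DKO 3 of the 5 were lower (Clmp, Epb4.1l5 and Ubn1) and 2 higher (Cgnl1 and Micall2). In DKO 14 of the 48 lay below both WT libraries and 15 above both, beside 26.4% and 27.8% of all tested genes. All 7 libraries without Esrp1 lay below both WT libraries for 4 of the 48 (Clmp, Cxadr, Marveld2 and Prkci) and above both for 2 (Marveld1 and Micall2), beside 5.08% and 5.07% of all tested genes. Marveld2, which encodes tricellulin, averaged 63.0% of WT in KO, 67.9% in KH and 59.4% in DKO. Prkci, which encodes an atypical protein kinase C of the polarity complex, averaged 78.9%, 85.7% and 73.2%, and Marveld1 150.0%, 154.8% and 143%. The limma adjusted p values of these 3 genes in Esrp1-null were 0.547, 0.557 and 0.554. No gene of the 48 passed in DKO against KO or KH.

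Clmp (chr9:40685962-40785319, plus strand) encodes a membrane protein related to the coxsackie and adenovirus receptor that is found at tight junctions. It measured 1.94 and 3.30 FPKM in WT, 0.155, 0.0345 and 0.0765 FPKM in KO, 0.131 and 0.0769 FPKM in KH, and 0.266 and 0.173 FPKM in DKO. All 7 libraries without Esrp1 were far below both WT libraries, and averages were 3.38% of WT in KO, 3.97% in KH and 8.38% in DKO. On the log2(FPKM + 1) scale, which understates changes at such low levels, the difference was -1.54 (SE 0.17) in DKO, -1.71 (SE 0.16) in KO, -1.69 (SE 0.17) in KH and -1.65 (SE 0.14) in Esrp1-null, with limma adjusted p values of 0.00381, 0.00997, 0.0213 and 0.00485. Without the 3 libraries low in granular markers the differences were -1.49, -1.75, -1.72 and -1.65 and the adjusted p values 0.196, 0.796, 0.263 and 0.172, so all 4 calls were lost. The call in DKO was also lost without DKO replicate 2 (adjusted p = 0.0508, and 0.00199 to 0.196 over all alternatives), and the calls in KO and KH were lost in 11 of 22 and 17 of 23 other settings, leaving out any single KO library among them. Genes on the opposite strand overlap Clmp, and the strand setting of the estimate is not given in the sources used here.

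Ubn1, Micall2, Epb4.1l5, Cgnl1 and Cxadr had unadjusted limma p values below 0.05 in some comparisons and did not pass. Micall2, which encodes a Rab13 partner in the transport of junction proteins, measured 3.83 and 3.71 FPKM in WT, 8.27, 6.09 and 5.44 FPKM in KO, 7.0 and 5.25 FPKM in KH, and 6.04 and 7.68 FPKM in DKO. It was above both WT libraries in all 7 libraries without Esrp1, with a log2 difference of 0.64 in Esrp1-null (SE 0.20, adjusted p = 0.462). Cgnl1, which encodes paracingulin, a relative of cingulin, measured 0.854 and 0.937 FPKM in WT and 1.67 and 2.97 FPKM in DKO. Its average in DKO was 259% of WT, with a log2 difference of 0.78 (SE 0.33, limma adjusted p = 0.345). The cingulin gene itself had a difference of -0.84 in the same comparison, and the contrast between these genes was not tested. Cxadr, which encodes the coxsackie and adenovirus receptor, was at 17.6 and 16.3 FPKM in WT and at 11.3 to 13.7 FPKM in the 7 libraries without Esrp1 (log2 difference -0.39, SE 0.15, adjusted p = 0.519). Epb4.1l5 was at 7.38 and 8.37 FPKM in WT and 4.63 and 3.97 FPKM in DKO (log2 difference -0.74, SE 0.23, adjusted p = 0.215), and Ubn1 at 13.7 and 15.4 FPKM in WT and 7.11 and 9.41 FPKM in DKO (-0.76, SE 0.25, adjusted p = 0.238). Cldn10 was at 0.392 to 0.522 FPKM in KO and KH, 0.159 and 0.233 FPKM in WT and 0.231 and 0.110 FPKM in DKO, and Crb3, a polarity gene, was at 38.7 and 25.1 FPKM in DKO against 20.8 and 21.7 FPKM in WT. Neither passed.

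**Figure D5:**
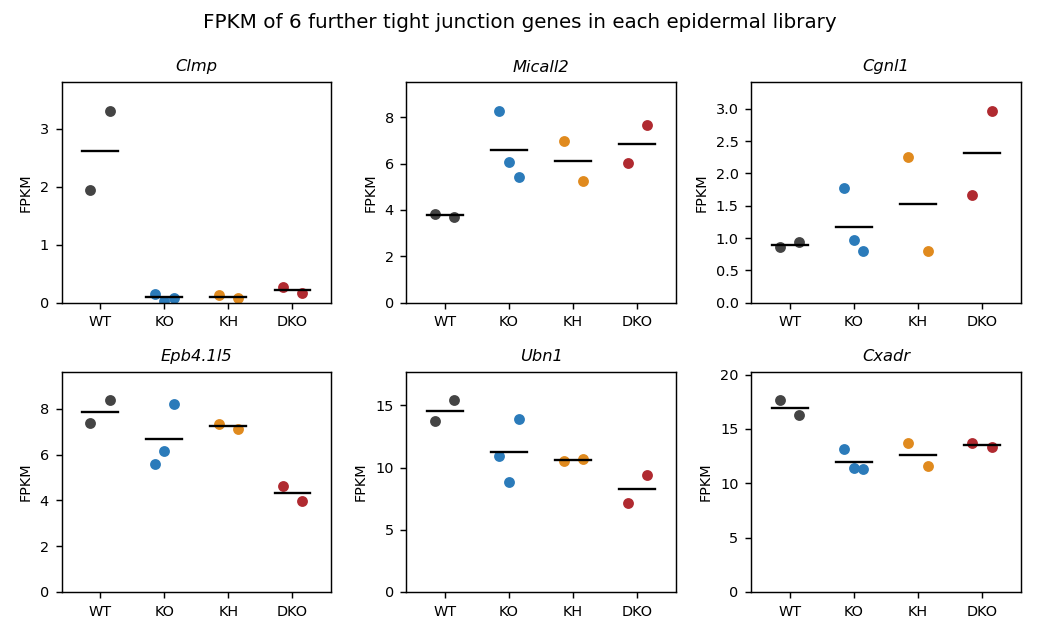
FPKM (vertical axes, from 0) of 6 further tight junction genes by genotype, with libraries as points and genotype means as lines. Clmp was at 1.94 and 3.30 FPKM in WT and at 0.0345 to 0.266 FPKM in the 7 libraries without Esrp1.

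The most abundant of the 63 were Csda (434 FPKM on average), which encodes the ZO-1-bound factor ZONAB, Vapa (81.9 FPKM), Lsr (54.4 FPKM), the polarity genes Pard3 (50.9 FPKM) and Pard6g (31.4 FPKM), and Cldn25 (43.8 FPKM), now named Cldnd1. Pard3 averaged 63.4 FPKM in WT and 41.9 FPKM in DKO (log2 difference -0.59, SE 0.31, adjusted p = 0.423), and the other 5 had differences between -0.32 and -0.082.

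Transcription factors and proteases that bear on the barrier, 13 genes in all, held no gene that passed in any comparison. Grhl1, a Grainyhead-like factor of the epidermis, measured 131 and 118 FPKM in WT, 52.8, 92.1 and 114 FPKM in KO, 62.4 and 107 FPKM in KH, and 43.0 and 41.6 FPKM in DKO. All 7 libraries without Esrp1 were below WT and both DKO libraries were lowest, with a log2 difference in DKO of -1.54 (SE 0.37, limma adjusted p = 0.136). The study also measured lower Grhl1 RNA in DKO by real-time RT-PCR, and it ties this to a skipped exon and decay of the transcript. Gene-level FPKM does not separate splice forms, so changes of isoform in any gene described here were not measured. Grhl3 had 58.9 FPKM in WT and 78.9 FPKM in DKO, Grhl2 13.8 and 18.0, Ovol1 82.1 and 88.2, Klf4 253.9 and 174, Trp63 51.7 and 41.9, and Tfap2a 34.9 and 38.7 FPKM, as genotype means, with limma adjusted p values between 0.467 and 0.916. The protease genes St14 and Prss8, whose products act in barrier formation, averaged 32.3 and 87.8 FPKM in WT and 38.4 and 61.1 FPKM in DKO. Among the repressors of epithelial junction genes, Snai2 was at 5.84 to 11.6 FPKM over all libraries. Zeb2 was at 0.529 and 0.533 FPKM in WT and higher in each of the 7 libraries without Esrp1 (0.597 to 1.14 FPKM). This order held for 5.07% of all tested genes. Zeb2 averaged 142% of WT in KO, 190% in KH and 145% in DKO. Its log2 difference was 0.21 in DKO (SE 0.14, limma adjusted p = 0.542) and 0.39 in KH (SE 0.14, limma adjusted p = 0.980). The highest Zeb2 value was in KH replicate 2, where the immune markers Ptprc, Cd3e and Lyz2 were also highest, and a link was not tested. Zeb1 was at 0.0672 to 0.215 FPKM and Snai1 at 0.027 to 0.133 FPKM.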

How the data were processed

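Epidermis was peeled from the trunk skin of E18.5 embryos after trypsin, and polyA RNA libraries were made with a stranded kit. Per the labels and the study's methods, the authors mapped reads with TopHat 1.4.1 to mm10 and Ensembl 72 and estimated FPKM with Cuffdiff 2.2.0, and these deposited FPKM values of 9 libraries were used, not read counts. The scaling between libraries is not given in the sources used here. Libraries were placed in genotypes by their titles. FPKM carries no depth.

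Genes averaging above 0.1 FPKM in at least 1 genotype were fitted as log2(FPKM + 1) over all 9 libraries with limma 3.58.1 (R 4.3.3), with 4 genotype means and an intensity trend. p-values were adjusted by the Benjamini-Hochberg method over all tested genes of a comparison. A gene passed at an adjusted p below 0.05 and over 2-fold in average FPKM. Shares of claudins were compared by an exact permutation test. Python 3.11.15 with pandas 2.3.3 was used for tables, GENCODE M21 for positions, and RefSeq for promoter windows. The fit was also run on simulated libraries, and no result here rests on that run. The members and lists were chosen with earlier results of these data known. Named were all 9 genes, listed tight junction genes that passed, reached an unadjusted p under 0.05 when DKO was compared with WT or were among the 6 most abundant, all 13 regulators, and the 3 genes most alike to each member. Cxadr, Cldn10, Crb3, Marveld1, Marveld2, Prkci and single markers were named after their values were seen. Alternatives were the pseudocount (0.1), filters, scalings, fits and leaving out each library.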

Additional observations from a re-analysis of the deposited data

How the results depend on the processing

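None of the 9 genes passed in any comparison under any of the 21 to 23 alternatives tried for it. The sign of their differences from WT held in 28 of 36 cases under all alternatives, and reversed in 8 in at least 1. Leaving out 1 library gave ranges of -0.0062 to 0.18 for Cldn3 and -0.40 to 0.27 for Cldn4 in KO, and -0.029 to 0.16 for Cldn3, -0.87 to 0.32 for Cldn4, -0.21 to 0.99 for Cldn7, -0.44 to 0.25 for F11r and -1.10 to 0.13 for Cgn in KH. The reversals came without KO replicate 1 (Cldn4), KH replicate 1 (Cldn4, Cldn7, F11r and Cgn) or WT replicate 2 (Cldn3). F11r in KH was 0.021 after rescaling to TPM and 0.025 after quantile normalization, against -0.094, and that rescaling put the median of all genes in KH against WT at 0.071. In DKO against KH it put that median at -0.12. Leaving out the 3 libraries low in granular markers, chosen after seeing the data, gave 0.27 for Cldn4 in KO, 0.32 in KH and 0.17 in Esrp1-null, and -0.21 for Cldn7, 0.25 for F11r and 0.13 for Cgn in KH; KH and DKO then had 1 library each, assumed to vary like the others.

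Over all tested genes, the count that passed moved more. In DKO against WT it was 123 and ranged from 54 to 556 over the alternatives, with 75 without DKO replicate 1, 65 without WT replicate 1, 54 without WT replicate 2, 67 with a replicate block and without the 3 libraries, 400 in a fit of only DKO and WT and 556 with arrayWeights. It was 5 in KO against WT (0 to 17, the highest without WT replicate 2), 5 in KH (0 to 33, the highest without KH replicate 1), 108 in DKO against KO (52 to 149), 72 in DKO against KH (33 to 308) and 17 in Esrp1-null (2 to 81). In DKO against KH the 33 came from a fit of only these genotypes, and the 308 from that fit with a crossed replicate block.

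Of the further tight junction genes, the 1 gene that passed against WT, Clmp, became 0 in DKO, KO, KH and Esrp1-null without those 3 libraries. In KO it became 0 with a filter at 1 FPKM, without a trend and in a fit of only KO and WT. In KH it became 0 with these, with a pseudocount of 0.1, no filter, arrayWeights and the length correction. Leaving out 1 library gave 0 to 1 in DKO, KO and KH. With a replicate block the count was 0 in KO, KH and Esrp1-null and 1 in DKO, and it was 0 for the 9 genes; KO replicate 3 is alone in its block. Libraries of the same number did not all deviate together (r of deviations -0.43 for DKO and KH, -0.57 for replicate 1 of DKO and KO, 0.47 and 0.34 for KH and KO), so the numbers were not taken as pairs. The descriptions number the libraries differently, and by these the number 2 libraries of DKO, KH and KO had r of 0.34 to 0.54, but number 1 of WT had -0.23 with KH and 0.039 with KO. No block was fitted on these numbers over all libraries. A crossed replicate block, added after seeing the data, swapped the 2 KH numbers in fits of only 2 genotypes. In DKO against KH it joined the libraries described as number 2. It gave a count of 0 in KH against WT and in DKO against KH. The cause of these losses was not tested. The precision is limited by 2 or 3 libraries a genotype, and the 95% intervals of Cldn1, Cldn4, Ocln, Tjp1 and Cgn in DKO include 2-fold lower levels.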
